A study of Mus musculus with 2 samples.

Results

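Nop56 and 7 noncoding genes, Gas5, Snhg1, Snhg3, Snhg5, Snhg6, Snhg8 and Snhg12, which carry small nucleolar RNAs (snoRNAs) in their introns, were followed in rRNA-depleted total RNA of X63/0 (X63-Ag8.653), a mouse plasmacytoma line. The members are 8 named genes, chosen by name with their exon and intron reads in these libraries in view, and 7 of the 8 had a row among the 43346 features of the table. Snhg8 had no row in the table analysed, and it is represented by its snoRNA, Snora24, which had one. A culture given 30 mM cycloleucine, an amino acid analogue that blocks the synthesis of the methyl donor S-adenosylmethionine, was harvested after 3 h, and it was set against an untreated culture of the same line. Each group had 1 library in the table, although the design text of the series speaks of triplicates, so no difference below can be set against a spread between replicates, and no p-values are printed. Cycloleucine was added as a stock in culture medium, and the labels do not say whether the untreated culture got plain medium.

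SnoRNAs guide chemical modification of other RNAs, mainly ribosomal RNA. Box C/D snoRNAs direct ribose methylation by fibrillarin, an enzyme that uses S-adenosylmethionine, and box H/ACA snoRNAs direct the change of uridine to pseudouridine. In mammals most snoRNAs are cut from introns after the host transcript is spliced, so that the host's exons and its snoRNAs begin as parts of the same transcript and then have separate fates. The spliced RNA of several noncoding hosts, among them Gas5 and Snhg1, is known to be unstable and to be removed by nonsense-mediated decay. Nop56 is a protein-coding host whose product is itself a core protein of box C/D particles.

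The cycloleucine library held 31951946 gene reads and the untreated library 27127865. Uniquely placed reads made up 62.97% of gene reads in the cycloleucine library and 64.5% in the untreated library, a log2 change of -0.03, while reads not uniquely placed had one of 0.06. Plasma cell identity was alike in both libraries, with a summed level of 606 RPKM over 8 measured plasma cell markers in the cycloleucine library and 605 RPKM in the untreated library. Of the listed markers of T and natural killer cells and of fibroblasts 0 were measured, with Cd3d, Gzmb and Nkg7 listed at 0 in both libraries, and of the myeloid markers 1 was, Cd68, at 1.15 RPKM with cycloleucine and 1.17 RPKM untreated. Of the listed B cell genes, Cd79b stood at 52.6 RPKM with cycloleucine and 50.5 RPKM untreated, Cd74 at 4.64 RPKM with cycloleucine and 4.76 RPKM untreated, and Ms4a1 at 3.11 RPKM with cycloleucine and 3.03 RPKM untreated, while Cd79a and Pax5 were near 0 in both. RPKM, as deposited, counts exon reads per kilobase of exon and scales them to the library's total gene reads. In bulk RNA such as this, fewer cells of a type and less RNA per cell cannot be told apart.

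The snoRNAs are shown first because snoRNA rows and host rows cover the same positions. In mm10, 31 small features lay inside the 7 host genes of the table, and each had a snoRNA of GENCODE M21 (GRCm38, the assembly of mm10) at the same place. The letters TGATGA of a C box near the start and CTGA of a D box near the end, on the snoRNA's own strand, were found in 18 of the 31, the letters ACA near the end of a longer RNA in 5, and neither in 8. Of all GENCODE snoRNAs of 60 to 130 bases, 31.9% held both box C/D letters in these windows. Of those of 110 to 210 bases, 27.7% held ACA in its window. The box C/D letters were counted only in RNAs of at most 130 bases and ACA only in those of at least 110. Not all 31 could therefore score for each. Those of Nop56 are shown because the ratio of this gene differed most, and both lie outside its GENCODE exons. Snord110 lies on the plus strand at chr2:130275506-130275573, with the C and D box letters in capitals, and Gm24451 at chr2:130276237-130276369, with ACA in capitals.
Snord110: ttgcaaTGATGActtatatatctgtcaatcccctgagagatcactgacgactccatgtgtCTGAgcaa
Gm24451: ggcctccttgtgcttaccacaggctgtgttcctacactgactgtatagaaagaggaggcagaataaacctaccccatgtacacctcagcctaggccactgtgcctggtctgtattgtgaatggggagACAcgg
Snord87, on the minus strand at chr1:9942463-9942549, is the snoRNA of Snhg6, whose reads not uniquely placed differed most.
Snord87: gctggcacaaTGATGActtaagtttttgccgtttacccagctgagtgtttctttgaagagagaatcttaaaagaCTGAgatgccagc
Gas5 carries 9 small features, of which Gm22357, on the plus strand at chr1:161036057-161036139, had the most reads.
Gm22357: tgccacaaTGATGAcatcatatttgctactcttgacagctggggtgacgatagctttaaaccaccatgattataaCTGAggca
Snord50a and Snord50b of Snhg5, on the minus strand at chr9:88521529-88521600 and chr9:88521797-88521868, differ by 1 base, C50A, counted from the first base of Snord50a, and are 98.61% identical, so a read can match both.
Snord50a: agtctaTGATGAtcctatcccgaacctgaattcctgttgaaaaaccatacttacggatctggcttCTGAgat
Snord50b: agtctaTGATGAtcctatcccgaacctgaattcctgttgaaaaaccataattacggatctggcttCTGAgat
Snora24, on the minus strand at chr3:123507937-123508066 inside Snhg8 of GENCODE, is shown because it alone of these snoRNAs was counted with no host row around it. ACA is in capitals.
Snora24: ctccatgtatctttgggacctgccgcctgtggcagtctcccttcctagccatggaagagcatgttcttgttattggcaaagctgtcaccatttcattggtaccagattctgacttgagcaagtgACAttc

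The share of uniquely placed reads in small features differed with whether an annotated gene lay around them. All 31 small features inside the 7 hosts together held 918 reads in the cycloleucine library and 629 in the untreated library, and 0 of these were uniquely placed. Snora24 held 1436 reads in the cycloleucine library, 1431 of them uniquely placed, and 1104 in the untreated library, 1095 of them uniquely placed. Over the whole table, 134 of 134 small features with at least 20 reads inside an annotated gene had no uniquely placed read, against 24 of 268 outside one. The median share of uniquely placed reads outside a gene was 48.9%, so Snora24 was above the usual feature there. What sets the placement was not tested. Reads not uniquely placed were frequent in the host rows too. They were 46.3% of the gene reads of Nop56 in the cycloleucine library and 37.0% in the untreated library, and in Snhg3 they were 98.4% with cycloleucine and 97.9% untreated. The middle value over 202 annotated genes found to hold a GENCODE snoRNA on their strand was 21.1%, against 5.04% over 6708 genes in which none was found. SnoRNAs were counted only in genes matched to GENCODE by symbol. In some genes of the host lists below, such as Gnb2l1 and Snhg7, none was counted. Reads not uniquely placed can also come from copies of a gene elsewhere, which was not tested.

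Exon annotation differed among the hosts in a way that set which reads count as intron reads. In Snhg1 the exon length of 2947 bases equals the whole gene, so it had 0 intron reads in both libraries. Gas5, with 3760 bases of exon in a gene of 4118, had 4 intron reads in the cycloleucine library and 9 in the untreated library, and Snhg5 had 5 with cycloleucine and 4 untreated. GENCODE exons of the host cover all 9 small features of Gas5, all 8 of Snhg1 and both of Snhg5. Host exons also cover all 4 in Snhg12 and 3 of 5 in Nop56, leaving out Snord110 and Gm24451, and cover none in Snhg6 or Snhg3. The exon lengths of the table differ from GENCODE for Snhg12, whose row held 3406 intron reads in the cycloleucine library and 2375 in the untreated library. Where the exons of a host span its snoRNAs, as in Gas5, Snhg1 and Snhg5, its exon RPKM spans their positions too.

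By deposited exon RPKM, 4 of the 7 hosts were higher and 3 lower in the cycloleucine library, and 0 reached 1.5-fold. The background is 9613 features whose RPKM reached 1 in a library and whose reads summed to 50 or more. Of these, 3.03% were higher by 1.5-fold or more and 2.47% were lower by as much, with a median log2 fold change of 0.0035. To take log2 fold changes of RPKM, 0.1 was added to both values. Brackets give 95% exact counting intervals, which cover counting error only. Nop56 and the noncoding hosts were chosen with these exon and intron values in view, so the values are a description.

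**Figure D1:**
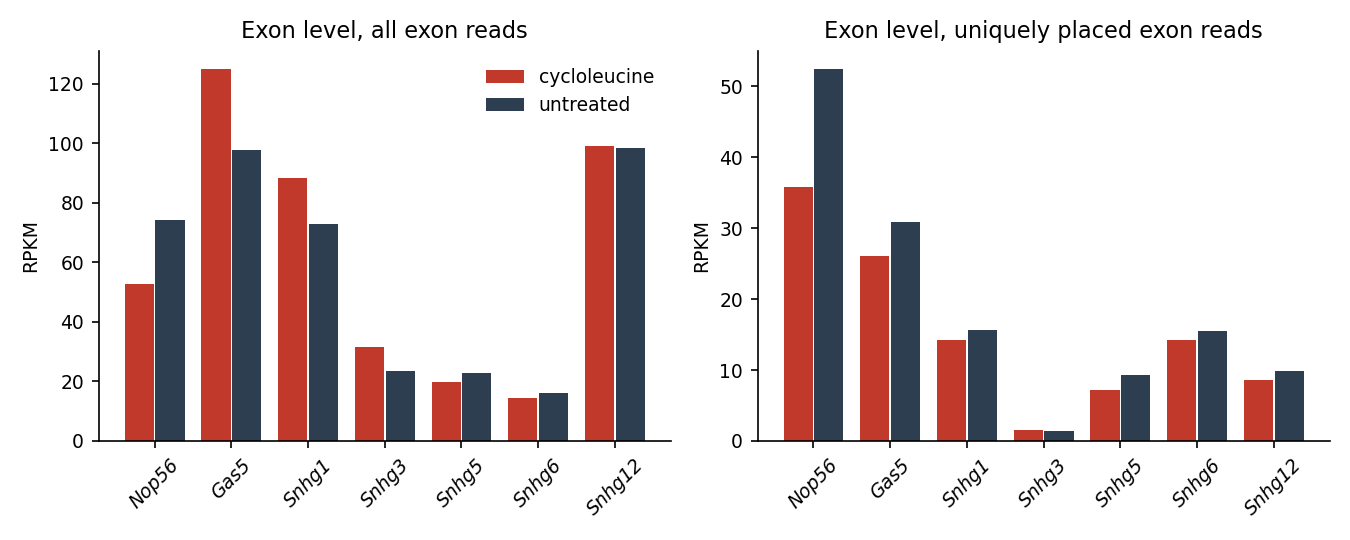
Exon level of each host in RPKM from all exon reads (left) and from uniquely placed exon reads scaled the same way (right), with the cycloleucine library in red and the untreated library in dark blue, 1 library each. From all exon reads 4 of 7 hosts are higher with cycloleucine, and from uniquely placed exon reads 6 of 7 are lower, with Snhg3 at 1.49 RPKM with cycloleucine and 1.46 RPKM untreated.

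Nop56, which lies on the plus strand at chr2:130274430-130279313, had an exon level of 52.9 RPKM in the cycloleucine library, against 74.3 RPKM in the untreated library, a log2 fold change of -0.49 (-0.54 to -0.45). Only its last 5 bases overlap another gene, Idh3b. Uniquely placed exon reads were 4686 in the cycloleucine library and 5828 in the untreated library, 1.46-fold lower with scaling by total gene reads. Reads that cross a junction of exons, and so stem from spliced RNA, gave the widest difference of Nop56, with 1374 uniquely placed in the cycloleucine library and 1917 in the untreated library, a log2 fold change of -0.72 (-0.82 to -0.62). Of 6509 genes with at least 100 such reads, 2.72% were lower by 1.5-fold or more and 2.89% higher by as much, and of 5 hosts with as many Nop56 was the 1 past 1.5-fold.

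The intron reads of Nop56 split by placement. Its 785 bases of intron held 2418 reads in the cycloleucine library and 1428 in the untreated library, a log2 fold change of 0.52 (0.43 to 0.62). Per kilobase of intron this was a level of 96.4 RPKM in the cycloleucine library and 67.1 RPKM in the untreated library. From all reads, the intron level thus lay above the exon level with cycloleucine and below it without. That comparison holds for all reads only, and most of the intron reads were not uniquely placed. Uniquely placed intron reads were 334 in the cycloleucine library and 284 in the untreated library, a log2 fold change of -0.0026 (-0.23 to 0.23). Intron reads not uniquely placed were 2084 in the cycloleucine library and 1144 in the untreated library, a log2 fold change of 0.63 (0.52 to 0.73). The difference in intron reads of Nop56 thus stood in reads not uniquely placed. The rows of its 5 small features held 34 reads in the cycloleucine library and 14 in the untreated library, and which positions the other reads cover was not tested.

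The log2 change of the Nop56 intron to exon ratio was 1.01 (0.91 to 1.12, a normal approximation from 4 counts) from all reads and 0.55 from uniquely placed reads. From all reads it ranked 37 of 6803 annotated genes, of which 5.16% were higher by 1.5-fold or more and 3.51% lower, and 0.588% were higher by 2-fold or more and 0.382% lower. Of the 4 hosts with a ratio, 4 lay above 0, against 52.9% of the 6803 genes, whose median was 0.02. Snhg3 did so by 0.01, with an interval that includes 0, and from uniquely placed reads Snhg6 and Snhg12 lay below 0. From all reads 2 hosts reached 1.5-fold and 1 reached 2-fold. Nop56 ranked first among the 1946 genes that had 500 or more intron reads and 1000 or more exon reads. From uniquely placed reads it ranked 449 of 6122. The small features inside Nop56 had few reads: Snord110 had 27 reads in the cycloleucine library and 12 in the untreated library, with an interval of the log2 fold change from -0.10 to 2.05, Gm24451 had 4 with cycloleucine and 1 untreated, and Snord57 had 2 with cycloleucine and 0 untreated.

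**Figure D2:**
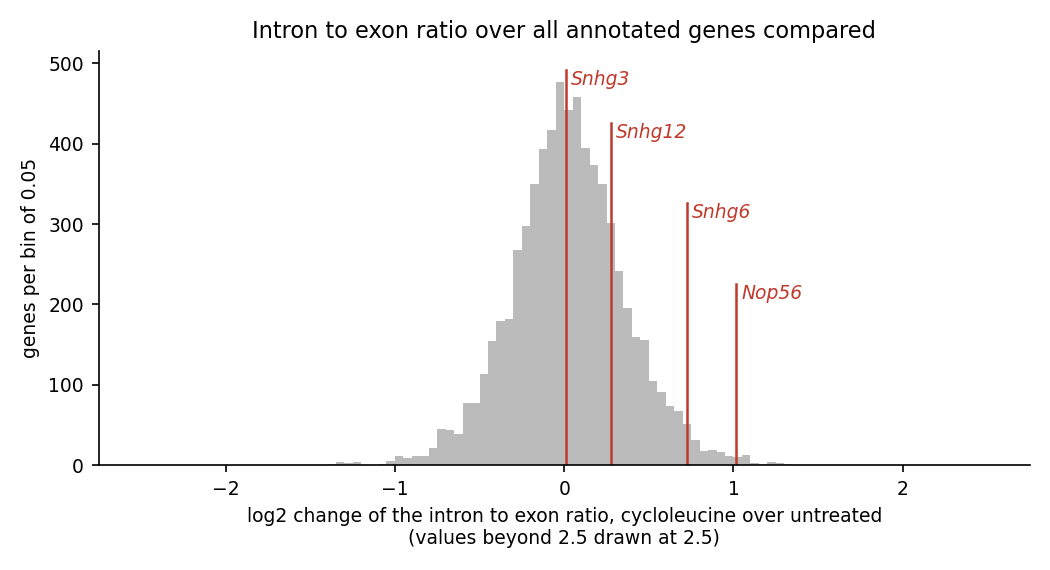
Log2 change of the intron to exon ratio (x axis, cycloleucine over untreated) over 6803 annotated genes, as genes per bin of 0.05, with red lines at the 4 hosts that had at least 100 intron reads and 200 exon reads, drawn at heights that only keep the names apart. Nop56 at 1.01 and Snhg6 at 0.73 lie in the upper tail, Snhg12 at 0.28 on its shoulder and Snhg3 at 0.01 in the middle.

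Genes whose exon and intron values were nearest to those of Nop56, by distance between the pairs of log2 fold changes over the 2 libraries, were Eif5, Hnrnpl, Phf20l1, Wdhd1 and Ndc1. The translation initiation factor gene Eif5, which holds 1 GENCODE snoRNA, had exon and intron log2 fold changes of -0.33 and 0.54. Its uniquely placed intron reads were 781 in the cycloleucine library and 528 in the untreated library, so in Eif5 these reads were higher too. The other 4 hold no GENCODE snoRNA on their strand, and their uniquely placed intron reads were higher as well. With cycloleucine and untreated these were 431 and 273 in Hnrnpl, 346 and 246 in Phf20l1, 282 and 173 in Wdhd1, and 326 and 226 in Ndc1. In Nop56, where most intron reads were not uniquely placed, the uniquely placed ones had a log2 fold change of -0.0026.

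Among the noncoding hosts, Snhg6, on the minus strand at chr1:9941959-9944118 with an overlap with Mcmdc2 at its end, had the other ratio past 1.5-fold. Its intron reads were 2699 in the cycloleucine library and 1525 in the untreated library, while its exon level was 14.6 RPKM with cycloleucine and 16.0 RPKM without. The log2 change of the ratio was 0.73 (0.53 to 0.92), and it turned to -0.18 from uniquely placed reads. Intron reads not uniquely placed were 2418 in the cycloleucine library and 1230 in the untreated library, a log2 fold change of 0.74 (0.64 to 0.84). Uniquely placed intron reads went the other way, with 281 in the cycloleucine library and 295 in the untreated library, a log2 fold change of -0.31 (-0.55 to -0.07). Snord87, its 1 small feature, had 41 reads in the cycloleucine library and 19 in the untreated library, a log2 fold change of 0.85 (0.06 to 1.74).

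Gas5, a noncoding gene named for its abundance in growth-arrested cells, lies on the plus strand at chr1:161034422-161038539 and overlaps Zbtb37 at its start. Its deposited level was 125 RPKM in the cycloleucine library and 97.7 RPKM in the untreated library, 1.28-fold higher, with a log2 fold change of 0.35 (0.32 to 0.39). That difference stood in reads not uniquely placed, of which its exons had 11867 in the cycloleucine library and 6821 in the untreated library, a log2 fold change of 0.56 (0.52 to 0.61). Uniquely placed exon reads of Gas5 were 3140 in the cycloleucine library and 3146 in the untreated library, a log2 fold change of -0.24 (-0.31 to -0.17) after scaling. Its uniquely placed exon-exon reads were 1068 with cycloleucine and 1061 untreated, a log2 fold change of -0.23 (-0.35 to -0.10). The deposited level of Gas5 and its junction reads thus differed in opposite directions. Its 9 small features together had 194 reads in the cycloleucine library and 110 in the untreated library, a log2 fold change of 0.58 (0.24 to 0.93). Gm22357 had 49 reads in the cycloleucine library and 30 in the untreated library, with an interval that includes 0 (-0.21 to 1.18). Gm25789 had 24 with cycloleucine and 6 untreated, and of the 9 it alone had an interval that excludes 0 (0.44 to 3.34).

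Snhg1, on the plus strand at chr19:8723496-8726442, shared the difference by placement but differed from Gas5 in its junctions. Its deposited level was 88.3 RPKM in the cycloleucine library and 73.0 RPKM in the untreated library, a log2 fold change of 0.27 (0.23 to 0.32). Reads not uniquely placed were 6970 in the cycloleucine library and 4585 in the untreated library, at 0.37 in log2 (0.31 to 0.42), and uniquely placed reads were 1345 with cycloleucine and 1251 untreated, at -0.13 (-0.24 to -0.02). Exon-exon reads of Snhg1 were 261 in the cycloleucine library and 156 in the untreated library, a log2 fold change of 0.50 (0.21 to 0.80), against -0.72 in Nop56 and -0.23 in Gas5. Because all of Snhg1 counts as exon, its other uniquely placed reads include intron positions. Snord22, a box C/D snoRNA of Snhg1, had 60 reads in the cycloleucine library and 41 in the untreated library, and its interval includes 0 (-0.28 to 0.92).

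Snhg5, on the minus strand at chr9:88521050-88522929, had values below 0 in both kinds of read. Its level was 19.9 RPKM in the cycloleucine library and 22.97 RPKM in the untreated library, a log2 fold change of -0.20 (-0.33 to -0.08). Uniquely placed gene reads were 404 in the cycloleucine library and 442 in the untreated library, at -0.37 in log2 (-0.56 to -0.17), while reads not uniquely placed were 702 with cycloleucine and 640 untreated, at -0.10 (-0.26 to 0.05). Exon-exon reads were 105 in the cycloleucine library and 88 in the untreated library, at 0.02 (-0.40 to 0.44). Snord50a had 23 reads and Snord50b 38 in the cycloleucine library, against 16 and 34 in the untreated library, and neither interval excludes 0.

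The hosts that carry mainly box H/ACA snoRNAs, Snhg12 and Snhg3, differed from each other. Snhg12, on the plus strand at chr4:132308678-132311024, had a level of 99.2 RPKM in the cycloleucine library and 98.6 RPKM in the untreated library, a log2 fold change of 0.0076 (-0.05 to 0.07). Its intron reads were 3406 in the cycloleucine library and 2375 in the untreated library, at 0.28 in log2 (0.21 to 0.36), and its ratio change was 0.28 (0.18 to 0.37). From uniquely placed reads the Snhg12 ratio change was -0.11, on 98 intron reads with cycloleucine and 103 without. Snora16a had 71 reads in the cycloleucine library and 42 in the untreated library, and Snora61 had 66 with cycloleucine and 55 untreated.

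Snhg3, on the minus strand at chr4:132348014-132353686, had the highest log2 fold change of the 7 in deposited RPKM, 0.42 (0.28 to 0.57), with a level of 31.6 RPKM in the cycloleucine library and 23.6 RPKM in the untreated library. Its exon and intron reads were higher together, with 996 exon and 1993 intron reads in the cycloleucine library and 630 and 1250 in the untreated library, so its ratio change was 0.01 (-0.16 to 0.19). Few of these reads were uniquely placed: 49 gene reads were of this kind in the cycloleucine library and 39 in the untreated library, at 0.09 in log2 (-0.54 to 0.74). The gene overlaps Rcc1, which encodes a nucleotide exchange factor of the GTPase Ran, and Snora73a and Snora73b lie inside both. The Rcc1 row held 44367 intron reads in the cycloleucine library and 31013 in the untreated library, and its uniquely placed gene reads were 2949 with cycloleucine and 2635 untreated, so most reads in this region cannot be given to either host. Snora73a and Snora73b are 96.59% identical. Their rows held 99 and 145 reads in the cycloleucine library and 91 and 102 in the untreated library, 0 of them uniquely placed.

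Of Snhg8 the table gives Snora24, whose level is not that of the host. An exon of GENCODE Snhg8 covers Snora24, so reads of host RNA and of the snoRNA cannot be told apart there. The level of this box H/ACA snoRNA had a log2 fold change of 0.14 (0.03 to 0.26), or 1.10-fold higher in the cycloleucine library, from 1436 reads with cycloleucine and 1104 untreated. Reads of the Snhg8 exons were not analysed here.

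**Figure D3:**
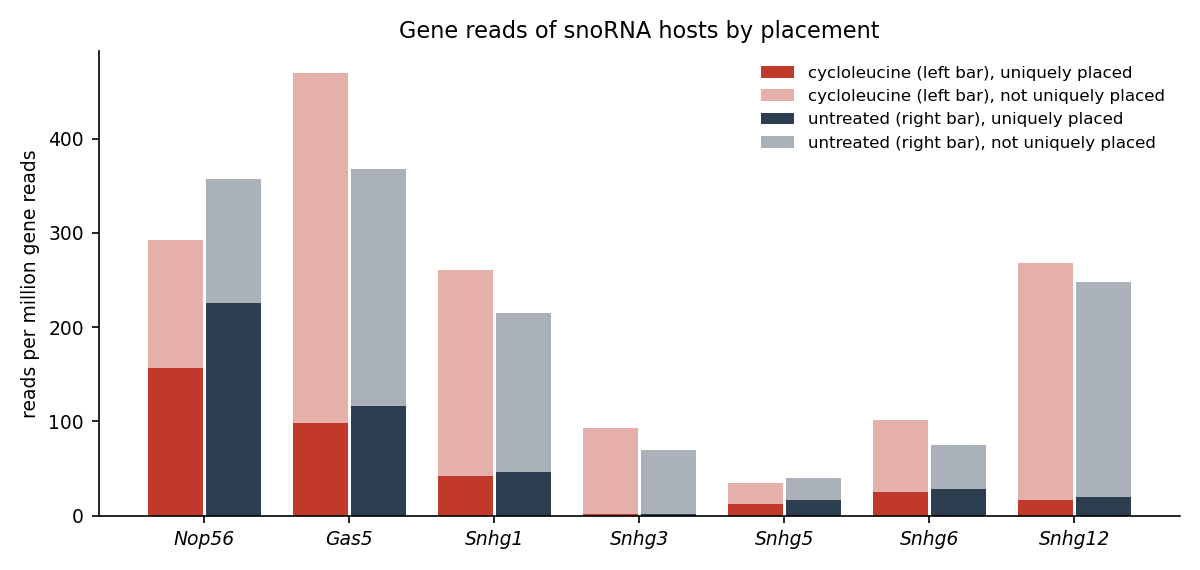
Gene reads of each host in CPM (y axis), scaled to the library's total gene reads, with uniquely placed reads in the solid lower part of each bar and reads not uniquely placed in the pale upper part, the cycloleucine library left (red) and the untreated library right (dark blue). The solid parts are lower with cycloleucine in 6 of 7 hosts, Snhg3 excepted. The pale parts are higher in 6 of 7, Snhg5 excepted, though in Nop56 by only 1.02-fold.

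Set side by side, most hosts, but not all, differed in the same direction by placement. Uniquely placed gene reads were lower in the cycloleucine library in 6 of 7 hosts, with the counting interval below 0 in all 6. Their median log2 fold change was -0.22. Such reads had a log2 change of -0.03 over the whole libraries, a value inside the interval of Snhg1 (-0.24 to -0.02). Reads not uniquely placed were higher in 6 of 7, with the interval above 0 in 5, and their median was 0.37. The 5 include Snhg3, most of whose reads cannot be told apart from those of Rcc1. In Nop56 the value was 0.035 (-0.03 to 0.10). Its exon reads not uniquely placed were lower, with a log2 fold change of -0.36 (-0.44 to -0.27). The difference between the log2 fold changes of the kinds of read, not unique less unique, was taken where a gene had at least 100 reads of each, which holds for 6 hosts. It was above 0 in 6 of 6, from 0.26 in Snhg5 to 0.92 in Snhg6, with the interval above 0 in each. It reached 1.5-fold in Gas5 (0.80) and Snhg6, and was 0.56 in Nop56. Over 5004 annotated genes measured the same way, 50.3% lay above 0, 2.08% were higher by 1.5-fold or more and 3.5% lower, and the median was 0.0027. Reads not uniquely placed were higher in 52.3% of these genes, against 5 of the 6 hosts, and uniquely placed reads lower in 47.2%, against 6 of 6.

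Other genes that hold a snoRNA were measured the same way. Of 192 such genes, 60.9% lay above 0 and 2.08% were higher by 1.5-fold or more, with a median difference of 0.04. Their uniquely placed reads were lower in 48.4%, at a median of 0.0055 in log2, and their reads not uniquely placed were higher in 59.9%. In the list of other noncoding hosts, 5 had enough reads of each kind, and 4 of them lay above 0, with a median difference of 0.21. Of these 5, Snhg4 stood at 0.52 and Snhg7 at -0.24, and neither is among the 192. The hosts described here were picked with results of these libraries known, and whether they stand apart from the other hosts was not tested.

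**Figure D4:**
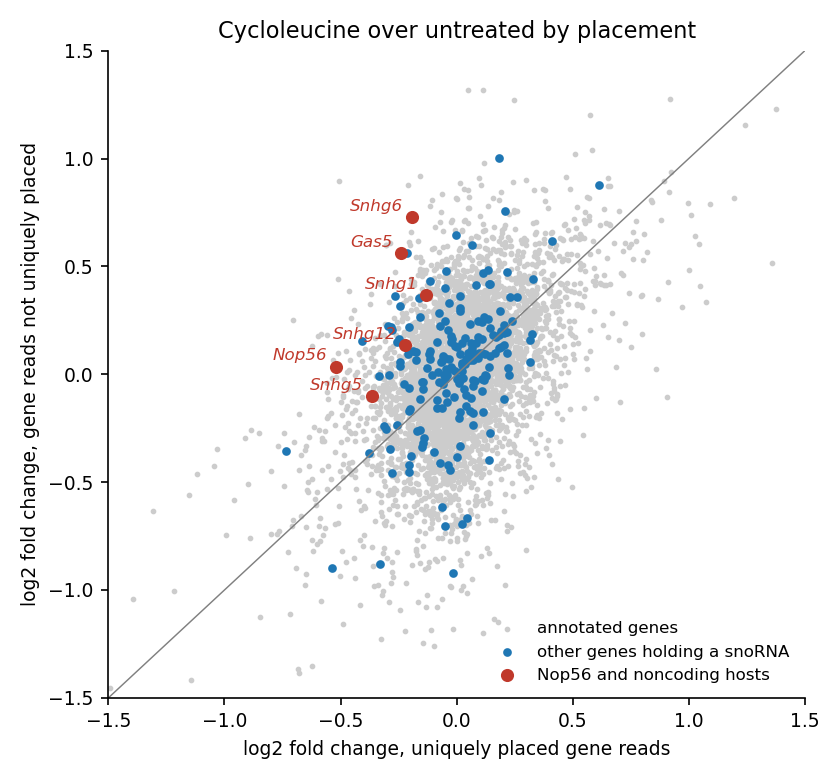
Log2 fold change of gene reads not uniquely placed (y axis) against that of uniquely placed gene reads (x axis), cycloleucine over untreated, for 5004 annotated genes with at least 100 reads of each kind (grey), other genes that hold a snoRNA (blue) and the 6 hosts that pass the same limit (red); 4 genes fall outside the axes. All 6 hosts lie above the line of equal change and left of 0 on the x axis.

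**Figure D5:**
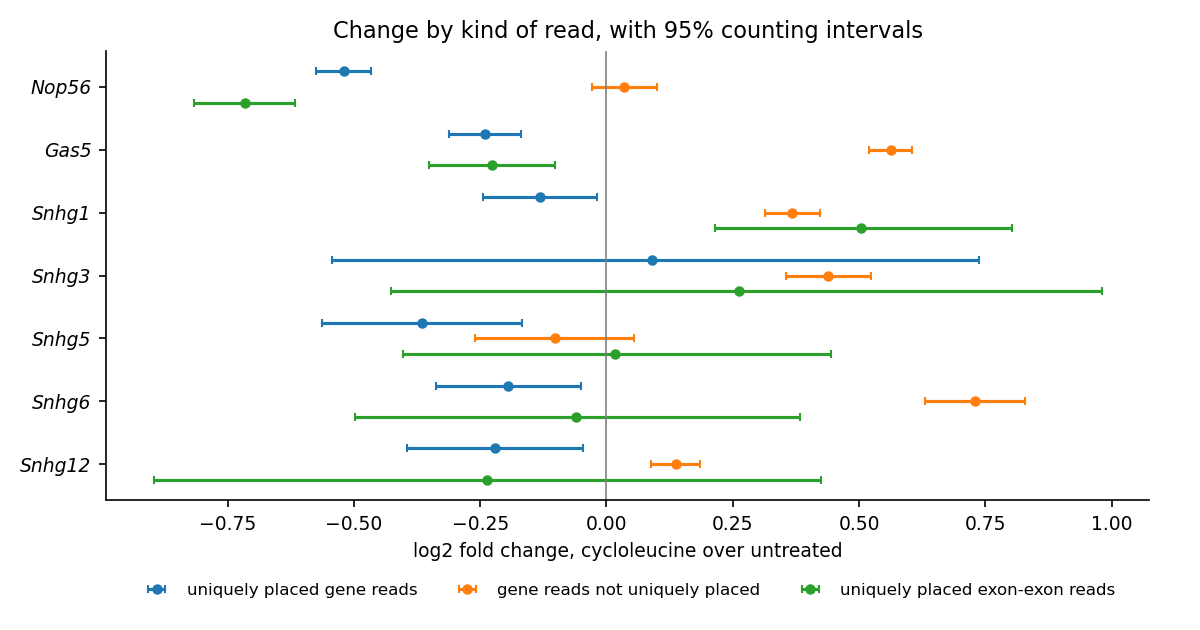
Log2 fold change (x axis, cycloleucine over untreated) of each host for uniquely placed gene reads (blue), gene reads not uniquely placed (orange) and uniquely placed exon-exon reads (green), with 95% exact counting intervals as bars. Nop56 has the lowest exon-exon value, -0.72, and Snhg1 the highest, 0.50, while the orange points of Gas5 and Snhg6 lie farthest right.

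Listed genes of the same pathway mostly stood near 0 by exon log2 fold change, against a median of 0.0035 over all features. In the list of other noncoding snoRNA hosts 6 of 21 were measured, all 6 lay above 0, against 50.9% of all 9613 features, 3 had an interval above 0, 0 reached 1.5-fold and the median was 0.13. Dancr, a noncoding host, had a level of 143 RPKM in the cycloleucine library and 107 RPKM in the untreated library, a log2 fold change of 0.42 (0.35 to 0.48). Unlike Gas5, its uniquely placed gene reads were higher as well, with 1163 in the cycloleucine library and 785 in the untreated library. 2410006H16Rik stood at 0.46 (0.32 to 0.59), 1110038B12Rik at 0.16 and Snhg9 at 0.11.

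The partners of Nop56 in the box C/D particle had log2 fold changes below 0 in 4 of 4 measured, against 49.1% of all features, with the interval below 0 in 2, a median of -0.09 and none past 1.5-fold. Nop58, which pairs with Nop56 in the particle and holds 4 GENCODE snoRNAs, had a level of 18.0 RPKM in the cycloleucine library and 20.3 RPKM in the untreated library, a log2 fold change of -0.17 (-0.22 to -0.12). Its uniquely placed reads had a log2 fold change of -0.22 and its reads not uniquely placed one of 0.56, a difference of 0.78. The ribose methyltransferase gene Fbl was at -0.07 (-0.14 to 0.01), Rrp9 at -0.11 (-0.18 to -0.03) and Nhp2l1, which encodes the protein that binds the box C/D fold, at -0.01 (-0.08 to 0.06). Box H/ACA proteins were 2 above and 3 below 0, with the pseudouridine synthase gene Dkc1 at 0.08, Nop10 at 0.10, Gar1 at -0.16 and Naf1 at -0.09. Of 12 measured assembly and transport factors 8 lay below 0, with a median of -0.08 and the nucleolar proteins Tcof1 at -0.27 and Nolc1 at -0.20, Shq1 at -0.26 and Nufip1 at -0.24.

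Genes whose products remove host RNA or introns showed no member past 1.5-fold. Of 17 measured nonsense-mediated decay factors 11 lay above 0, with a median of 0.01, Smg6 at 0.36, Pnrc2 at 0.35, Smg8 at 0.29 and Upf3b at -0.44 (-0.67 to -0.24). Of 21 measured genes of intron debranching and of exonucleases 10 lay above 0, with a median of -0.01, Exosc8 at 0.32, Exosc9 at 0.24, Exosc4 at -0.30 and Zcchc7 at -0.48 (-0.77 to -0.28). Protein-coding snoRNA hosts numbered 74 measured, 38 above and 36 below 0, with a median of 0.0046, and 1, Rpl21, was at least 1.5-fold lower at -0.62 (-0.94 to -0.35), on 170 exon reads in the cycloleucine library and 226 in the untreated library. In this list Hspa8 was at 0.35, Eif4a2 at 0.31 and Gnl3 at -0.30.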

How the data were processed

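The deposited table gave, per the file headers, read counts per feature, total and uniquely placed, for each gene and for its exons, introns and junctions, and RPKM values that the authors computed. Deposited RPKM, multiplied back by exon length and library total, matched the exon count in 43346 of 43346 features of each library, within 0.02 reads plus a share of 0.0001. Per the submitters' processing notes, mm10 was used. Not given in the sources used here are the aligner, the counter, the annotation release, strand use and what makes a read uniquely placed. Table starts were raised by 1, after which 32621 of 39342 features matched by symbol had the GENCODE M21 start. Whether a host's reads include those of a feature inside it is not stated.

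Counts were scaled by total gene reads with 0.5 added. Log2 fold changes of RPKM used a pseudocount of 0.1. Intervals are 95% exact (Clopper-Pearson), or from 4 counts by a normal approximation for ratios, and cover counting error only; reads copied by PCR are not separate molecules. With 1 library per group no statistical test between groups was made. Intron to exon ratios needed 100 intron reads and 200 exon reads, summed over the libraries. Small features had no annotated transcript and at most 400 bases. Python 3.11.15, scipy 1.17.1 and edgeR 4.0.16 (TMM and RLE scaling of exon counts, as alternatives) were used, and the script for the ratio was checked on simulated counts.

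Members and gene lists were chosen with earlier results of these data known. Named were all members, up to 4 small features per host with at least 100 reads and up to 4 genes per list with the largest change. The small features with fewer reads, Rcc1 and the split by placement were chosen after values were seen.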

Additional observations from a re-analysis of the deposited data

How the results depend on the processing

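No paired analysis was possible because the table holds 1 library with cycloleucine and 1 without. Of 102 alternative values 64 stayed within the counting interval or within 1.5 times the count. Of the log2 values 9 changed sign, 8 of them with uniquely placed reads. TMM and RLE scaling shifted all log2 values by 0.01. Adding the reads of nested small features was chosen after seeing the data. Neither adding nor subtracting them moved a ratio change beyond its interval, though adding them took that of Snhg3 to -0.03. These rows held few reads, in Nop56 34 with cycloleucine and 14 untreated, beside 2418 and 1428 intron reads. The step could therefore hardly move the ratio, and it does not show how the ratio depends on reads over snoRNAs.

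With uniquely placed reads the exon log2 fold change was -0.55 for Nop56, 0.031 for Snhg3 and -0.36 for Snhg5, and it changed sign to -0.24 for Gas5, -0.13 for Snhg1 and -0.20 for Snhg12. The intron log2 fold change turned to -0.0026 for Nop56, -0.31 for Snhg12 and -0.31 for Snhg6. The ratio change was 0.55 for Nop56 and turned to -0.11 for Snhg12 and -0.18 for Snhg6. Snhg3 had too few such intron reads. The intron share of unique gene reads was 6.65% with cycloleucine and 4.65% untreated for Nop56, 4.08% with cycloleucine and 0% untreated for Snhg3, 35.1% with cycloleucine and 37.9% untreated for Snhg6, and 18.0% with cycloleucine and 19.1% untreated for Snhg12. With exon-exon reads for spliced RNA the ratio change was 1.28 for Nop56 and 0.55 for Snhg12. The latter rests on only 43 exon-exon reads with cycloleucine and 44 untreated. The cause of these moves was not tested.

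Features at least 1.5-fold higher and lower in exon RPKM, 291 and 237, were 150 and 108 with a pseudocount of 1, 2755 and 2581 with no filter and 122 and 82 at an RPKM of at least 5. At 2-fold, 70 and 64 became 35 and 26, 1181 and 1214, and 33 and 22. For the ratio, with at least 500 intron and 1000 exon reads, 24 and 25 genes in place of 351 and 239 were past 1.5-fold, and 1 and 4 in place of 40 and 26 past 2-fold, since fewer genes entered.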

Other observations

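Among the 192 other genes that hold a snoRNA, the widest differences by placement, singled out after their values were seen, were those of Tmem62, Nop58, Snx12 (0.65), Snx5 (0.63), Wdr43 and Rabggtb. Tmem62 had 357 reads not uniquely placed in the cycloleucine library and 151 in the untreated library, and its uniquely placed reads were 370 with cycloleucine and 277 untreated, a difference of 0.82 in log2. Wdr43, a ribosome biogenesis gene with 3 GENCODE snoRNAs, had 759 not uniquely placed with cycloleucine and 517 untreated, and 7077 uniquely placed with cycloleucine and 7119 untreated, a difference of 0.56. Rabggtb, which also holds 3, had 325 not uniquely placed with cycloleucine and 248 untreated, and 869 uniquely placed with cycloleucine and 978 untreated, a difference of 0.56. In the opposite direction Fbxl4 stood at -0.91 and Ubap2l at -0.71.

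Among genes that had 500 or more intron reads and 1000 or more exon reads, the next highest ratio change after Nop56 was that of Ndufs7, a respiratory chain subunit gene that holds no GENCODE snoRNA, at 0.99, with 503 intron reads in the cycloleucine library and 201 in the untreated library. Actb, the beta-actin gene, had 486 intron reads with cycloleucine and 195 untreated and a ratio change of 0.74.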
